A study of Mus musculus with 6 samples.

Results

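The embryonic and adult globin genes were followed, with Alas2 and Slc4a1, in cells sorted from the mouse forebrain at E12.5. The set was given by name and holds 9 genes of the 52636 in the count table, and 9 of 9 passed the filter on low counts that left 16869 genes for testing. All embryos were heterozygous for floxed alleles of Smad1 and Smad5, transcription factors of the bone morphogenetic protein pathway. The SmadNes mutants (Smad1wt/fl;Smad5wt/fl;Nestin:Cre+/0) also carried Nestin:Cre, a Cre recombinase driven in neural progenitors, while their control littermates had no Cre (Nestin:Cre0/0 with the same Smad1wt/fl;Smad5wt/fl alleles). Each genotype gave 3 pools of Prominin1-positive cells, each named SF3, SF4 or SF5_6. The embryos were of mixed background (CD1, 129/ola and C57BL6). The number of embryos or litters behind a pool is not stated, so a p-value here speaks of pools and not of embryos. Without pairing, a genotype difference is set against the spread between pools of a genotype. Where libraries are paired by name, it is set against the spread of the differences within pairs.

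Hemoglobin is a tetramer of alpha-like and beta-like globin chains, each of which holds a heme group that binds oxygen. In the mouse embryo, primitive red cells from the yolk sac make the embryonic chains together with adult alpha chains, and definitive red cells from the fetal liver make adult chains. In midgestation both kinds of cell circulate, and the balance of embryonic and adult chains in blood changes over time. Red cell precursors and reticulocytes carry globin mRNA, whereas radial glia, the neural progenitors that carry Prominin1, are not blood cells.

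The set covers both gene clusters and 2 further erythroid genes, with positions on GRCm38 from the GENCODE M21 annotation. The beta cluster spans 40693 bases of chromosome 7 on the minus strand. In it, Hbb-bt (103812524 to 103813996) and Hbb-bs (103826534 to 103828096) encode adult beta chains. Hbb-bh1 (103841637 to 103843164) and Hbb-y (103851749 to 103853216) encode embryonic beta-like chains. The alpha cluster spans 20899 bases of chromosome 11 on the plus strand. There Hba-x (32276400 to 32278116) encodes the embryonic zeta chain, and Hba-a1 (32283511 to 32284465) and Hba-a2 (32296489 to 32297298) encode adult alpha chains. Slc4a1 (chromosome 11, 102348824 to 102366203, minus strand) encodes the anion exchanger band 3 of the red cell membrane. Alas2 (chromosome X, 150547375 to 150570638, plus strand) encodes the erythroid form of the enzyme that starts heme synthesis.

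The adult genes come in pairs that are almost copies, which bears on every value given for them singly. The coding sequences of Hbb-bt and Hbb-bs are the same at 440 of 441 bases, and those of Hba-a1 and Hba-a2 at 425 of 426. The stretches around the single differing base, given in capitals, are shown because the split of reads within the coding sequence rests on it. They run from coding base 397 to 437 for the beta pair, with the substitution T417C from Hbb-bt to Hbb-bs, and from 361 to 401 for the alpha pair, with C381T from Hba-a1 to Hba-a2, counted from 1 at the A of the start codon.
Hbb-bt: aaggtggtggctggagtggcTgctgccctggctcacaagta
Hbb-bs: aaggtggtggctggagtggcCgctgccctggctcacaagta
Hba-a1: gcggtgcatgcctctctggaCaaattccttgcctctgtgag
Hba-a2: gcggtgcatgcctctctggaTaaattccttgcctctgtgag
Outside the coding sequence the beta pair is easier to tell apart. Over the 131 bases of 3′ UTR that can be compared, Hbb-bt and Hbb-bs align with 94 identical bases, 35 mismatches and 4 gap bases, which is 70.7% identity with gaps counted. For Hba-a1 and Hba-a2 the 74 bases compared are 100% identical. The embryonic genes stand further apart, with 76.4% identity between the coding sequences of Hbb-y and Hbb-bh1, 74.1% between Hbb-bt and Hbb-y, and 61.7% between Hba-a1 and Hba-x. The counts were estimated by RSEM, which divides reads that match several places, so the values of Hba-a1 and Hba-a2 are best read together. The reference carries Hbb-bs and Hbb-bt. Laboratory strains differ in the haplotype of the adult beta genes, and the haplotypes of these mixed-background embryos were not tested.

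Promoters are shown for 5 members whose levels differed between pools, as described further on. They are the 150 bases before the RefSeq start on GRCm38.p6, written on the strand of the gene. The GENCODE M21 positions given above begin further upstream than the RefSeq starts. The windows of Hbb-bs, Hba-a1 and Hba-x lie wholly inside those positions, and the windows of Hbb-bt and Hbb-y in part. Capitals mark the core TATAA of the TATA box, the CCAAT box, the CACCC box and the GATA motif. The GATA motif was searched as A or T, then GATA, then A or G. Each motif was searched on both strands, so that a CCAAT box can also read ATTGG.
Hbb-bt, chr7:103813924-103814073, minus strand: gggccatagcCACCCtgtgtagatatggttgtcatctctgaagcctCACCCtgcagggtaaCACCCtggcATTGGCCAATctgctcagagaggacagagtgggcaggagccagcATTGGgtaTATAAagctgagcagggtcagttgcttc
Hbb-bs, chr7:103827929-103828078, minus strand: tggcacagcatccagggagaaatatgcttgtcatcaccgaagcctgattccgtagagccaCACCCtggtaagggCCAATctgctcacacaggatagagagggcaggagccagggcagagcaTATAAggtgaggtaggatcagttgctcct
Hbb-y, chr7:103853208-103853357, minus strand: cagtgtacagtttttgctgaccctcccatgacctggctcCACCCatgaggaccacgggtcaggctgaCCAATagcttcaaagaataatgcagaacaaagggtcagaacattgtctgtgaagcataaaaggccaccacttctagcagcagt
Hba-a1, chr11:32283522-32283671, plus strand: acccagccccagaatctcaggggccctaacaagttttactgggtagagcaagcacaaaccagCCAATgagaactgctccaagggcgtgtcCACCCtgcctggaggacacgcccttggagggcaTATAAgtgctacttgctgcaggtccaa
Hba-x, chr11:32276450-32276599, plus strand: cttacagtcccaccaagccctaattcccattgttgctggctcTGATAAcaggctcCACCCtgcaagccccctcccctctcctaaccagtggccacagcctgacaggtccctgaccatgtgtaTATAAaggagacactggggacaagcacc
CACCC, the core of sites for KLF factors, stands in each of these 5 windows and in 37.4% of all 32851 promoters of that length. CCAAT stands in 4 of the 5, not in Hba-x, against 24.5% of all promoters. TATAA stands in 4 of the 5, not in Hbb-y, against 14.2%. The GATA motif stands in Hba-x, against 16%. The table gave a promoter for 7 of the 9 members. The Hba-a2 window holds the same motifs as that of Hba-a1, and Alas2 holds 3 abutting CACCC motifs on its minus strand and 1 GATA motif. Hbb-bh1 and Slc4a1 are named only.

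Library totals lay between 32997423 and 40744672 expected counts. Levels are given as CPM, counts per 1000000 with TMM scaling, and a count of 0 leaves room for up to 3 counts, or 0.091 CPM in the library where this comes to most. Markers of radial glia, such as Prom1, Nes and Sox2, summed to 1714 to 2039 CPM in SmadNes and 1616 to 1983 CPM in controls. Neuronal markers summed to 3587 to 3949 CPM in SmadNes and 3597 to 4437 CPM in controls, so neuronal transcripts were also abundant. The 7 globin genes together took 0.0348% (SF3), 0.0119% (SF4) and 0.0667% (SF5_6) of the counts in SmadNes, against 0.0369%, 0.0114% and 0.113% in the controls of the same names.

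Per kilobase of the longest protein-coding transcript, and averaged over the 6 libraries, Hbb-y was the highest of the set at 250 ± 293 CPM per kb (SD, n = 6). Hba-a1 followed at 168 ± 123, Hba-a2 at 120 ± 80.2 and Hbb-bs at 71.1 ± 35.7 CPM per kb. Hba-x stood at 47.9 ± 63.5, Hbb-bt at 31.7 ± 16.5 and Hbb-bh1 at 7.97 ± 11.7 CPM per kb. Alas2 (1.84 ± 1.43) and Slc4a1 (1.31 ± 1.64) were the lowest. The ranges over libraries overlapped for every pair of neighbours in this order, and the order changed with the pool. In the pools named SF3, Hba-a1 (157), Hba-a2 (117), Hbb-bs (116) and Hbb-y (115 CPM per kb) stood close together, whereas in SF5_6 Hbb-y reached 606 CPM per kb against 295 for Hba-a1 and 53.2 for Hbb-bs. The GENCODE transcript used for Hba-a1 holds 196 bases of 5′ UTR, against 35 for Hba-a2. The values per kb thus depend on the annotated start.

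**Figure D1:**
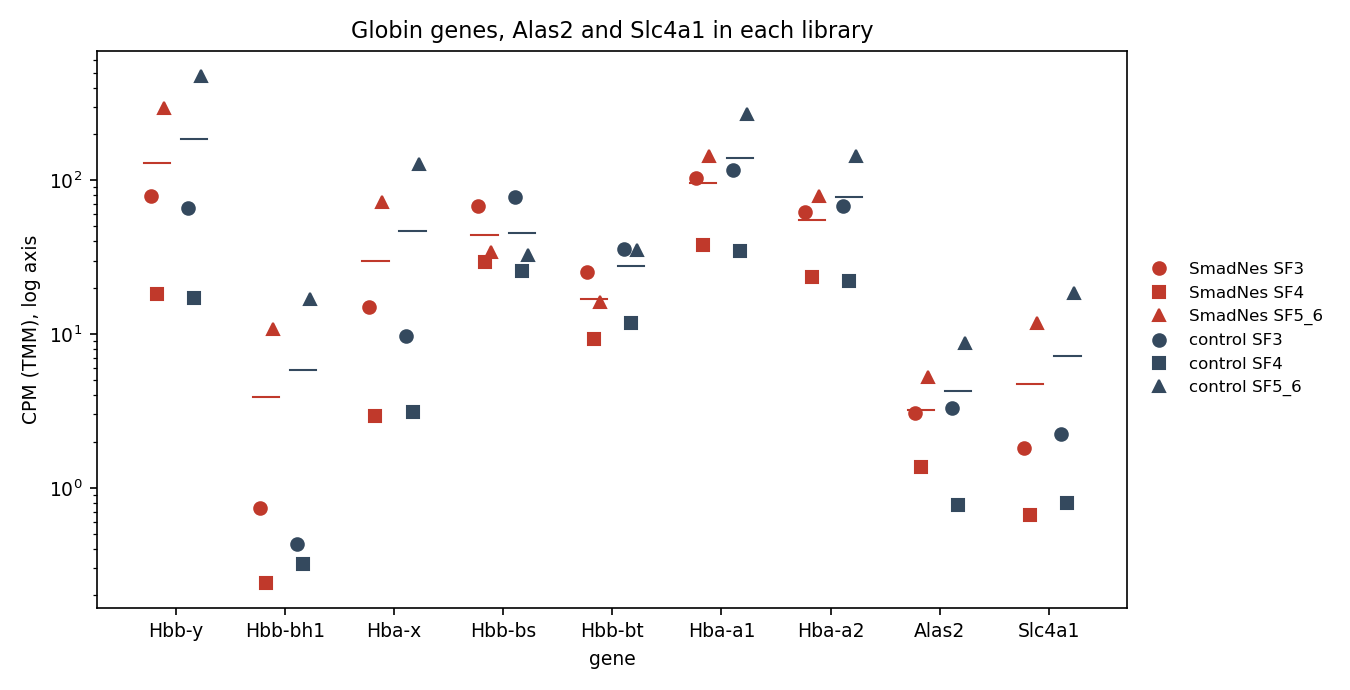
Level of each gene in each library, as CPM with TMM scaling on a log axis, with SmadNes left of control, symbols for the pool name and a short line at the mean of each genotype (n = 3). Hbb-y stood at 293 CPM in SmadNes SF5_6 and 475 CPM in control SF5_6, and at 18.2 and 17.1 CPM in the SF4 libraries of the same genotypes.

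The comparison of SmadNes with control asks whether these transcripts differ when Nestin:Cre is present with the floxed alleles. No member passed edgeR's quasi-likelihood test, with an adjusted p of 1 for each. The groups overlapped for 9 of 9, and the share of all genes with such overlap was not counted. The same test called 0 of the 16869 genes (0%). At an unadjusted p under 0.05 it listed 177 genes and no member. The 9 fitted log2 differences were all negative, with a median of -0.55, against a median of -0.000 over all genes, of which 8466 were negative. Their standard errors ran between 0.503 and 1.777, and the sign of each member except Hbb-bt turned when 1 library was left out. In bulk samples, fewer cells of a type and less RNA per cell cannot be told apart.

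The names SF3, SF4 and SF5_6 pair the libraries, so each difference was also taken within its pair. Below, pair values are log2 CPM in SmadNes minus control.

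Among the adult beta genes, Hbb-bt had the lower value in SmadNes in each pair. It stood at 25.3 (SF3), 9.25 (SF4) and 16.1 (SF5_6) CPM in SmadNes, against 35.9, 11.9 and 35.1 CPM in the controls of the same names. The pair values were negative in 3 of 3 pairs, at -0.50, -0.36 and -1.12, although the SmadNes SF3 library lay above control SF4 and the groups overlapped. The means were 16.9 ± 8.06 CPM in SmadNes and 27.6 ± 13.7 CPM in controls (SD, n = 3 each). EdgeR put the log2 difference at -0.70 (SE 0.512). With the replicate name as a block the difference was -0.68 (SE 0.127), at an adjusted p of 0.318 by edgeR and 0.251 by limma-voom. DESeq2 with the block called it, at an adjusted p of 0.00362, and so did edgeR with the block when the SF4 pair (0.0186) or the SF5_6 pair (0.00882) was left out, but not without the SF3 pair (0.386). Such blocked fits also called more genes in all: edgeR with the block called 4 genes (0.0237%), DESeq2 14, and edgeR without the SF4 or SF5_6 pair 48 and 149.

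Hbb-bs, the neighbour of Hbb-bt and nearly identical to it in coding sequence, showed no such difference. It stood at 67.8, 29.6 and 34.1 CPM in SmadNes SF3, SF4 and SF5_6, against 78.2, 25.5 and 32.8 CPM in controls. The pair values were -0.21, 0.21 and 0.05, and the blocked difference was 0.006 (SE 0.074). The same counts can be put as the share of Hbb-bt among the adult beta counts, which restates the difference between the genes. That share was 27.2% (SF3), 23.8% (SF4) and 32.1% (SF5_6) in SmadNes, against 31.4%, 31.7% and 51.7% in controls. The 95% Wilson intervals, which cover counting error only, did not overlap within any pair: 25.8% to 28.7% in SmadNes and 30.0% to 32.9% in control for SF3, 21.6% to 26.3% and 29.4% to 34.1% for SF4, and 30.0% to 34.4% and 49.7% to 53.8% for SF5_6. Over pools, the share averaged 27.7% ± 4.16 in SmadNes and 38.3% ± 11.6 in controls (SD, n = 3 each). The difference of -10.6 percentage points did not pass an exact two-sided permutation test (p = 0.3, adjusted p 0.9 over 5 measures), where 3 against 3 cannot go below 0.1, nor the exact sign-flip test over pairs (p = 0.25, the smallest that 3 pairs allow). Hbb-bt and Hbb-bs share nearly all of their coding sequence, so this share depends on how the counts were divided between them. SmadNes was lower in all 3 pairs for 14.3% of all genes tested, and for 2 of the 9 members, Hbb-bt and Slc4a1.

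The adult alpha genes differed mainly in the SF5_6 pair. Hba-a1 stood at 104, 37.8 and 144 CPM in SmadNes SF3, SF4 and SF5_6, against 116, 34.8 and 269 CPM in controls. Its pair values were -0.16, 0.12 and -0.90, so that SmadNes was lower in 2 of 3 pairs. Hba-a2 ran in parallel, at 62.3, 23.3 and 78.8 CPM in SmadNes, against 67.6, 22.1 and 143 CPM in controls. Hba-a2 held 37.5%, 38.2% and 35.3% of the adult alpha counts in SmadNes, and 36.9%, 38.8% and 34.8% in controls. Unlike the split of the beta pair, this share differed by under 1 percentage point within each pair. The alpha pair was 100% identical over the UTR bases compared, which leaves less to divide its reads by. Its share is therefore no check on that of the beta pair. With the block the differences were -0.35 (SE 0.152) for Hba-a1 and -0.34 (SE 0.145) for Hba-a2, at adjusted p of 0.797 and 0.784 by edgeR. Counted by edgeR with the block at an unadjusted p below 0.05, 4 of the 9 members lay lower (Hbb-bt, Hba-a1, Hba-a2 and Slc4a1), against 3.45% of all genes. Those 4 include the near-copies Hba-a1 and Hba-a2, which are not separate evidence. The members also varied together over the libraries, with both SF4 libraries below the others for 9 of 9. The 4 are therefore not independent of one another, and their count is not comparable to one of unrelated genes. The count also changed with the method. In either direction, DESeq2 with the block listed 1 member among 369 genes, and limma-voom with the block 6 among 1106. With the SF5_6 pair left out, edgeR with the block gave -0.031 for Hba-a1, -0.030 for Hba-a2 and -0.278 for Slc4a1, against -0.441 for Hbb-bt.

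The embryonic genes had the widest spread between pools, and their sign differed between pairs. Hbb-y stood at 79.4, 18.2 and 293 CPM in SmadNes SF3, SF4 and SF5_6, against 65.6, 17.1 and 475 CPM in controls, with pair values of 0.27, 0.09 and -0.70. Hbb-bh1 was scarce outside SF5_6, with 28, 8 and 374 counts in SmadNes and 15, 13 and 572 counts in controls. In CPM that was 0.736, 0.243 and 10.8 in SmadNes, against 0.434, 0.323 and 16.8 in controls. Hba-x stood at 14.9, 2.91 and 72.2 CPM in SmadNes, against 9.66, 3.10 and 127 CPM in controls, with pair values of 0.63, -0.09 and -0.82. All 3 embryonic genes were thus higher in SmadNes SF3 and lower in SmadNes SF5_6 than in the control of the same name. With the block the differences were -0.17 (SE 0.158) for Hbb-y, -0.39 (SE 0.228) for Hbb-bh1 and -0.24 (SE 0.231) for Hba-x.

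Slc4a1 stood at 1.81, 0.667 and 11.7 CPM in SmadNes SF3, SF4 and SF5_6, against 2.23, 0.794 and 18.6 CPM in controls. SmadNes was lower in 3 of 3 pairs (-0.30, -0.25 and -0.66), and the blocked difference was -0.50 (SE 0.136) at an adjusted p of 0.507 by edgeR. Outside SF5_6 its counts were low, at 69 (SF3) and 22 (SF4) in SmadNes, against 77 and 32 in controls. With the SF5_6 pair left out, the blocked difference was -0.278 (SE 0.283). Alas2 stood at 3.05, 1.36 and 5.22 CPM in SmadNes, against 3.30, 0.769 and 8.75 CPM in controls, with the SmadNes library higher in SF4 (45 counts, against 31 in control) and lower in the other pairs.

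**Figure D2:**
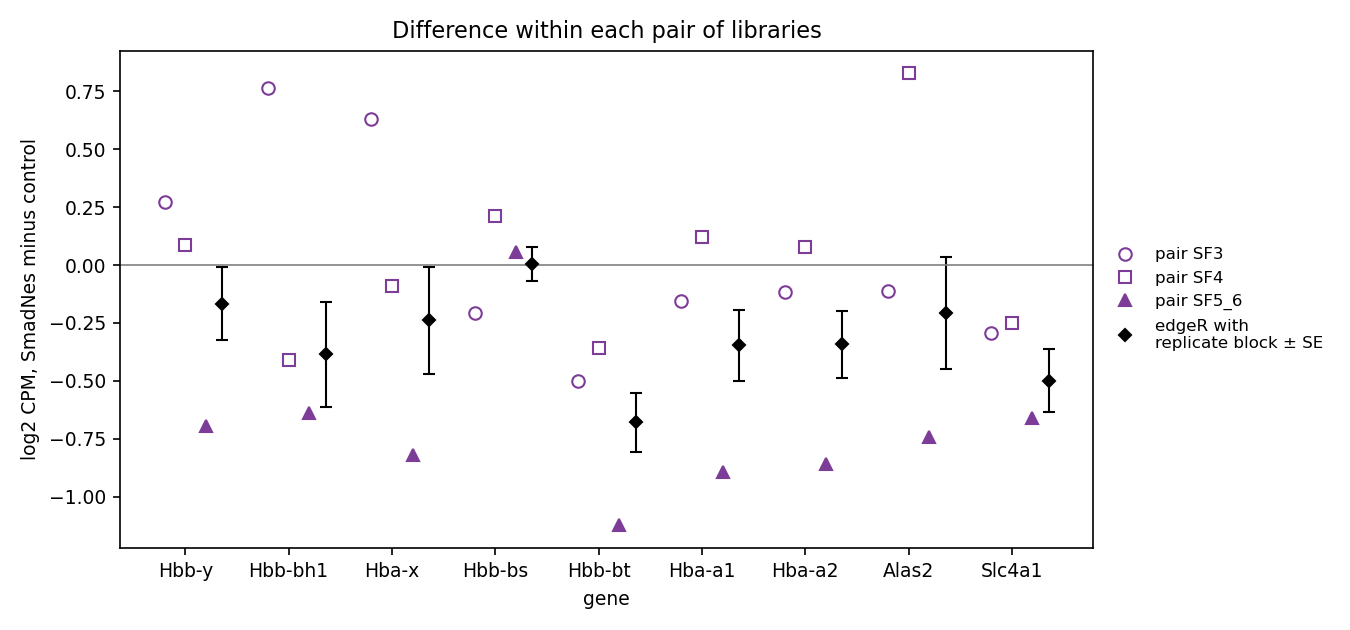
Log2 CPM in SmadNes minus control within each pair of libraries, by gene, with the edgeR difference fitted with the replicate name as a block and its SE (black). Hbb-bt and Slc4a1 lie below 0 in 3 of 3 pairs, and the SF5_6 pair is the lowest for 8 of 9 genes, all except Hbb-bs.

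The make-up of the globin counts was compared apart from their amount. Transcript lengths lie between 613 and 703 bases for the beta-like genes and between 554 and 801 bases for the alpha-like ones, so shares of counts are near, but not equal to, shares of molecules. Hbb-y and Hbb-bh1 together held 46.2% (SF3), 32.2% (SF4) and 85.8% (SF5_6) of the beta-like counts in SmadNes, against 36.7%, 31.9% and 87.8% in controls. Hba-x held 8.26%, 4.55% and 24.4% of the alpha-like counts in SmadNes, against 5.01%, 5.17% and 23.6% in controls. In SF3 the SmadNes library thus held the larger embryonic share of both chains, and its Wilson intervals (45.0% to 47.5% for beta, 7.63% to 8.93% for alpha) did not overlap those of control SF3 (35.5% to 37.9% and 4.51% to 5.56%). In SF5_6 the beta-like intervals did not overlap either, in the other direction, at 85.2% to 86.4% in SmadNes and 87.4% to 88.3% in control. The alpha-like intervals of SF5_6, and both intervals of SF4, overlapped between the genotypes. Over the 3 pools of each genotype the differences were 2.63 percentage points for beta and 1.14 for alpha, and neither passed the exact permutation test (two-sided p = 0.9 and 0.7, adjusted p 0.9 for both over 5 measures).

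Beta-like and alpha-like counts stayed near balance in every library. Their ratio was 0.957 (SF3), 0.894 (SF4) and 1.20 (SF5_6) in SmadNes, against 0.934, 0.915 and 1.04 in controls. The difference of 0.07 on the log2 scale did not pass (exact permutation p = 0.7, adjusted p 0.9). Summed over the 7 genes, globin mRNA reached 354, 121 and 649 CPM in SmadNes, against 373, 115 and 1098 CPM in controls. The log2 difference of the sum was -0.25 (exact permutation p = 0.9, adjusted p 0.9), with pair values of -0.07, 0.08 and -0.76, so that the difference lay mainly in the SF5_6 pair.

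**Figure D3:**
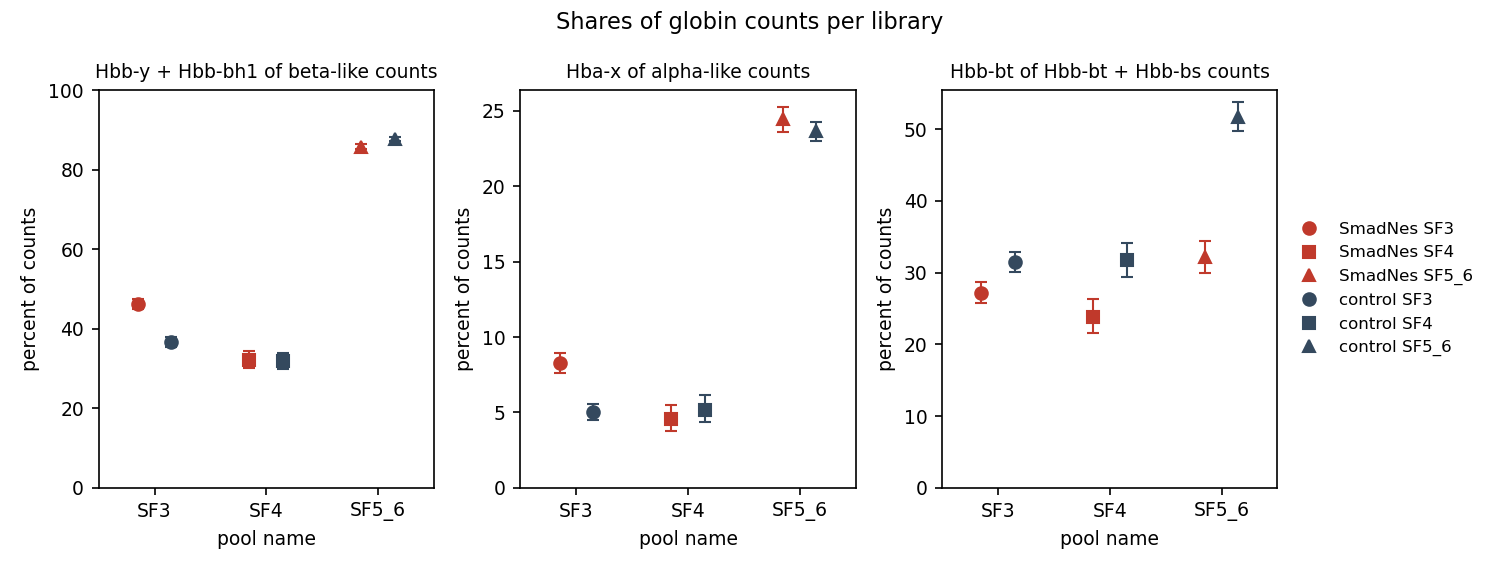
Share of the embryonic genes among beta-like counts (left), of Hba-x among alpha-like counts (middle) and of Hbb-bt among adult beta counts (right), in percent per library, with SmadNes left of control in each pool and 95% Wilson intervals as bars. The embryonic share of beta-like counts was 85.8% in SmadNes SF5_6 and 87.8% in control SF5_6, and at most 46.2% in the other 4 libraries.

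The pool name separated the libraries far more than the genotype did, and both the amount and the kind of globin differed with it. An F test between pools, chosen after these data were seen and run in edgeR with genotype as a term, called 9 of 9 members, against 28.8% of all genes tested. The members varied together and were chosen with earlier results known, so this count is not comparable to one of unrelated genes. Each pool rests on 2 libraries, 1 per genotype, and no name has a replicate pool of the same genotype. The p-values of this F test are therefore set against the scatter left within a name after the genotype term. Hbb-bh1 averaged 13.8 CPM in SF5_6 and 0.585 CPM in SF3, 23.6-fold higher in SF5_6 (adjusted p 7.68e-06 over the 3 pools). Only 10 of all genes tested reached 10-fold in that direction. Hba-x was 8.11-fold higher in SF5_6 (99.7 against 12.3 CPM, adjusted p 1.89e-05), and Hbb-y 5.29-fold (384 against 72.5 CPM, adjusted p 8.55e-06).

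Adult genes followed another pattern. Hba-a1 and Hba-a2 were 1.88-fold and 1.71-fold higher in SF5_6 than in SF3, with adjusted p of 0.000119 and 0.000151 between pools. Hbb-bt had a ratio of 0.838 (25.6 CPM in SF5_6 and 30.6 CPM in SF3), and Hbb-bs was lower, at a ratio of 0.458 (33.4 CPM in SF5_6 and 73.0 CPM in SF3, adjusted p 2.54e-05 between pools). Both SF5_6 libraries stood above the other 4 for 7 of 9 members, all but the adult beta genes, against 23.2% of all genes. Both SF4 libraries stood below the other 4 for 9 of 9 members, against 11.3% of all genes. These counts are likewise of genes that varied together, and are not comparable to counts of unrelated genes.

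Slc4a1 went with the embryonic genes, 7.50-fold higher in SF5_6 than in SF3 (adjusted p 4.17e-06 between pools), and Alas2 was 2.20-fold higher (0.000881). Per 1000 globin counts, Slc4a1 gave 18.1 counts in SmadNes SF5_6 and 16.9 in control SF5_6, and 5.13 to 6.92 in the other 4 libraries. Alas2 gave 8.04 counts in SmadNes SF5_6 and 7.97 in control SF5_6, within the 6.70 to 11.3 of the others. Within the embryonic beta genes, Hbb-bh1 held 3.55% in SmadNes SF5_6 and 3.42% in control SF5_6, and at most 1.85% in the other 4.

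Marker lists of other cells were set beside the globins, and their calls between pools are read against the 28.8% of all genes. Those of microglia and macrophages, such as Csf1r and Mrc1, summed to 177, 26.4 and 133 CPM in SmadNes SF3, SF4 and SF5_6, against 164, 28.8 and 116 CPM in controls, and 10 of 10 were called between pools. Mesenchymal markers, such as Col1a1 and Lum, summed to 873, 265 and 1280 CPM in SmadNes, against 623, 430 and 1018 CPM in controls, and 8 of 8 were called. Like the globins, both lists were lowest in the SF4 libraries. Of the radial glia markers 7 of 9 were called between pools, and of the neuronal markers 3 of 5. Endothelial markers summed to 24.7, 21.8 and 25.3 CPM in SmadNes SF3, SF4 and SF5_6, against 21.2, 19.2 and 26.1 CPM in controls. Within each genotype this list was also lowest in SF4, although control SF3 lay below SmadNes SF4. Of the 7 tested, 2 were called, a share close to that of all genes. The megakaryocyte and platelet list summed to 10.2, 6.01 and 9.09 CPM in SmadNes SF3, SF4 and SF5_6, against 12.6, 7.34 and 8.19 CPM in controls, so that it too was lowest in SF4, and 1 of 3 tested was called. The part of these cells, and of differences in stage or dissection, in the globin levels was not tested.

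**Figure D4:**
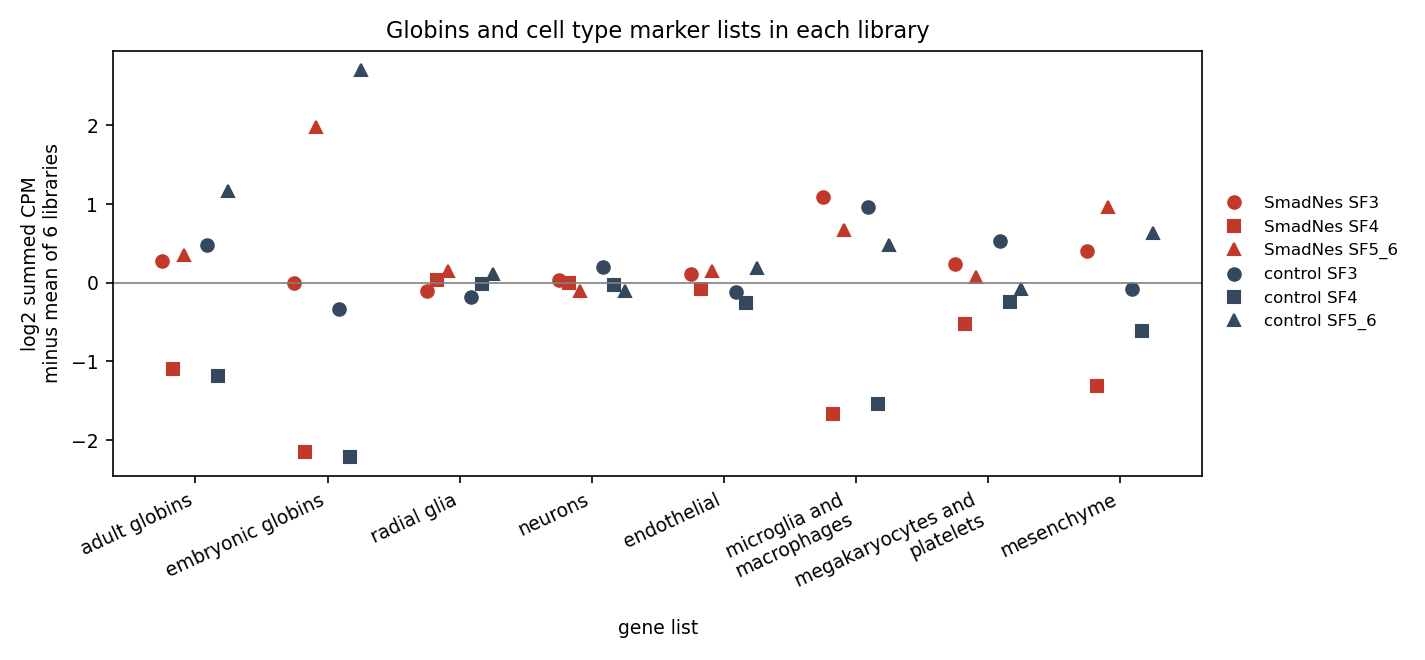
Summed CPM of the adult globins, the embryonic globins and 6 marker lists in each library, on the log2 scale minus the mean of the 6 libraries, with SmadNes left of control. The SF4 libraries are lowest for the globins, for microglia and macrophages, for megakaryocytes and platelets and for mesenchyme. The radial glia list lies between 1616 and 2039 CPM in all 6 libraries.

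Other genes known from red cells ranged widely in level. Outside the globin genes and the set, 52 genes were listed in 4 groups and 39 of them were tested. EdgeR called none of these between genotypes, and with the block 1 was lower and 1 higher at an unadjusted p below 0.05. The median log2 difference was -0.07 for heme synthesis, -0.06 for transcription factors, -0.10 for membrane genes and 0.004 for enzymes, iron uptake and differentiation, against -0.000 over all genes. Between pools 18 of the 39 were called, against 28.8% of all genes, and in 15 both SF5_6 libraries stood above the other 4, against 23.2% of all genes. Of 9 other globin genes, Cygb (cytoglobin, made in many tissues) was the only one to pass the filter, at 7.27 ± 2.12 CPM in SmadNes and 7.48 ± 2.01 CPM in controls (SD, n = 3 each). Hbb-bh0, Hbb-bh3 and Hba-ps4 had 0 counts in all 6 libraries, and Hbq1b, a theta-like globin, had at most 3 counts in SmadNes and 7 in controls.

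All 10 genes of heme synthesis were tested and none was called. Ppox, which makes protoporphyrin, stood at 29.1 ± 1.72 CPM in SmadNes and 32.2 ± 1.17 CPM in controls, with an unadjusted p of 0.0264 and an adjusted p of 0.731 by edgeR with the block. Alas1, the form of Alas2 used in most other tissues, stood at 30.2 ± 1.23 CPM in SmadNes and 31.9 ± 2.16 CPM in controls. Uros stood at 13.1 ± 0.952 CPM in SmadNes and 14.1 ± 1.77 CPM in controls, and the mitochondrial carrier Slc25a38 at 16.3 ± 1.86 CPM in SmadNes and 17.6 ± 0.571 CPM in controls. Their summed level was 227 to 232 CPM in SmadNes and 236 to 242 CPM in controls, without the drop in SF4 that the globins showed.

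The erythroid transcription factors (9 of 13 tested, 0 called between genotypes, 7 called between pools) held both scarce and abundant members. Klf1, which activates the adult beta gene, had 16, 15 and 14 counts in SmadNes SF3, SF4 and SF5_6, against 6, 29 and 23 counts in controls. Gata1, the master factor of red cells, had 1, 0 and 6 counts in SmadNes, against 0, 0 and 4 counts in controls. Sox6, which represses Hbb-y in definitive red cells and is also made in the brain, stood at 204 ± 23.4 CPM in SmadNes and 192 ± 19.3 CPM in controls, with an adjusted p of 0.758 by edgeR with the block. Ldb1 stood at 361 ± 26.6 CPM in SmadNes and 380 ± 31.2 CPM in controls, and Zfpm1, the partner of GATA1, at 9.49 ± 0.315 CPM in SmadNes and 10.4 ± 1.60 CPM in controls.

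Of the genes of the red cell membrane, 11 of 16 were tested, 0 were called between genotypes and 3 between pools, a share close to the 28.8% of all genes. Ank1, the ankyrin that anchors band 3, stood at 6.77 ± 0.472 CPM in SmadNes and 7.87 ± 1.72 CPM in controls. Sptb (erythroid beta spectrin) stood at 5.43 ± 0.427 CPM in SmadNes and 6.03 ± 0.599 CPM in controls. Dmtn stood at 4.30 ± 1.36 CPM in SmadNes and 5.20 ± 1.68 CPM in controls, and Add2 at 251 ± 5.49 CPM in SmadNes and 269 ± 23.6 CPM in controls. Some members were seen almost only in SF5_6. Rhag, a channel protein of the red cell membrane, had 13 counts in SmadNes SF5_6 and 16 in control SF5_6, and 0 in the other 4 libraries. Kel, a blood group protein, had 59 counts in SmadNes SF5_6 and 67 in control SF5_6, and at most 3 in the others. Rhag and Kel were picked for mention with their values known.

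Of the red cell enzymes, iron uptake and differentiation genes, 10 of 14 were tested, 0 were called between genotypes and 6 between pools. Car2 (carbonic anhydrase II) stood at 2.68 ± 1.61 CPM in SmadNes and 3.29 ± 1.88 CPM in controls. The transferrin receptor Tfrc, which most dividing cells use, stood at 115 ± 9.22 CPM in SmadNes and 110 ± 7.79 CPM in controls. Tfr2 stood at 0.546 ± 0.112 CPM in SmadNes and 0.452 ± 0.110 CPM in controls. Fech, which inserts iron into protoporphyrin to form heme, stood at 22.7 ± 1.90 CPM in SmadNes and 22.0 ± 1.78 CPM in controls. Car1, a red cell marker of later stages, had 0 counts in all 6 libraries.

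The mean profile of the 9 members over the 6 libraries (log2 CPM, each gene centred) was 0.015 (SF3), -1.53 (SF4) and 1.19 (SF5_6) in SmadNes, and -0.009, -1.56 and 1.89 in controls. By root mean square difference from it, the nearest of 14183 other genes averaging 1 CPM or more were Zfp979 (0.317), Dlk1 (0.332), D030055H07Rik (0.333), Six3os1 (0.349) and Fgd5 (0.350), against a median of 1.28. Dlk1, an imprinted gene that encodes a Notch ligand-like protein, stood at 11.4, 5.76 and 30.8 CPM in SmadNes SF3, SF4 and SF5_6, against 11.6, 7.37 and 62.4 CPM in controls. Of the members themselves, Alas2 (0.304) and Hba-a1 (0.324) lay nearest to the mean profile, and Hbb-bh1 (1.26) and Hbb-bs (1.31) farthest from it. With 6 libraries that differ mainly by pool name, many genes can share such a profile.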

How the data were processed

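Per the labels' protocols, forebrain cells were dissociated, sorted for Prominin1 and sequenced as stranded paired-end mRNA libraries, and the authors mapped reads to GRCm38 with STAR 2.5.3a and estimated counts with RSEM 1.3.0 on GENCODE M15. The deposited table holds the authors' expected counts as whole numbers per gene, unscaled. The sources used here do not say how they were rounded. DESeq2 1.18 is also named, per the submitters' processing notes.

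The counts were tested with edgeR 4.0.16 in R 4.3.3 (quasi-likelihood F test, TMM, filterByExpr, Benjamini-Hochberg adjusted p below 0.05 over 16869 genes), with genotype as the term and 3 pools per genotype. The SE given with an edgeR difference was derived from the test, as the absolute log2 difference divided by the square root of its F statistic. Alternatives were a replicate block, DESeq2 1.42.0, limma-voom 3.58.1, DESeq2 size factors, no filter (28368 genes) and leaving out each library or pair. Libraries of 1 name deviated together (r of 0.493, 0.697 and 0.724 over genes, against at most -0.0582 for different names), and the labels speak of pairs, so the names pair the samples. Each gene was first centred over the libraries of its genotype, so positive values for 1 name bring negative ones for different names. That contrast is thus partly built in. Within each genotype, no library was a copy of another (chi-square per degree of freedom of at least 10.6). SmadNes and control libraries were not compared in this way. Summed levels, shares and ratios were compared by exact two-sided permutation over libraries. Sequences and starts come from RefSeq, and coding sequences from GENCODE M21, where 9 of 9 members matched by ID.

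The members and lists were chosen with earlier results of these data known. Named were all members and up to 4 genes per other list with the smallest unadjusted p. Outside that rule, Gata1, Hbq1b, Hbb-bh0, Hbb-bh3, Hba-ps4, Car1, Rhag and Kel were named with their values known, and Prom1, Nes, Sox2, Csf1r, Mrc1, Col1a1 and Lum only as examples of their marker lists.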

Additional observations from a re-analysis of the deposited data

How the results depend on the processing

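The count of called genes, 0 in the main test, was 4 with the replicate block, 7 by DESeq2, 14 by DESeq2 with the block, 1 by limma-voom and 8 by limma-voom with the block. With the block and without the SF3, SF4 or SF5_6 pair it was 10, 48 and 149. It stayed at 0 with DESeq2 size factors, with no filter and without any 1 library. Of the members, Hbb-bt alone was called under any of these settings, and its log2 difference stayed negative in all 16 (-1.12 to -0.412).

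Other signs turned. Hbb-bs was 0.006 with the block, 0.009 by DESeq2 with the block, 0.047 by limma-voom and 0.135 with the block without the SF3 pair. With the block and without the SF5_6 pair, Hbb-y was 0.195, Hbb-bh1 0.309, Hba-x 0.352 and Alas2 0.243, and by limma-voom Hba-x was 0.048 and Alas2 0.076. Leaving out 1 library gave log2 differences of -0.516 to 0.590 for Hbb-bs, -1.925 to 1.650 for Hbb-y, -3.545 to 3.363 for Hbb-bh1, -2.374 to 2.236 for Hba-x, -1.008 to 0.338 for Hba-a1, -0.940 to 0.287 for Hba-a2, -0.942 to 0.663 for Alas2 and -2.517 to 1.651 for Slc4a1. Each upper end except that of Hbb-bs is without control SF5_6, the library highest in globins. The summed globin level ran from -1.078 to 0.5518 on the log2 scale, and its mean over the SF3 and SF4 pairs was 0.002656, an alternative chosen after seeing the data. The embryonic share differed by -12.89 to 20.5 percentage points for beta and -4.867 to 7.32 for alpha, the beta to alpha ratio by -0.05457 to 0.1565 (log2), and the Hbb-bt share by -14.01 to -3.864 percentage points, the last negative throughout. The cause of these changes was not tested beyond the libraries left out. With 3 pools per genotype that differ so much among themselves, a difference in these genes between genotypes was detectable only if it was large against the pools or was taken within pairs.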
